A study of Mus musculus with 9 samples.

Results

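Interleukin-10 and transforming growth factor beta (TGF-beta) are the main suppressive cytokines of the helper T cell field, and 10 genes of their ligands, receptors and signal carriers are described here. The genes were taken by name from the count table, which holds 56860 genes, and all 10 were present: Il10, Il10ra, Il10rb, Tgfb1, Tgfb3, Tgfbr1, Tgfbr2, Smad3, Smad7 and Skil. RNA was sequenced in 9 mouse libraries labelled as spleen CD4+ T cells, 3 from CIA mice given luteolin, a plant flavone, 3 from CIA mice without it and 3 from control mice. CIA is the usual abbreviation of collagen-induced arthritis, an arthritis raised by immunisation with collagen, and the series title names RA; the labels do not spell CIA out and give no strain, age, luteolin dose or duration. The labels do not say whether libraries of a group came from separate animals, so the p-values measure the spread between these libraries, which may be technical.

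IL-10 binds a receptor made of IL-10RA, the ligand-binding chain, and IL-10RB, a chain shared with other cytokines, and signals through JAK1, TYK2 and STAT3. It is made by regulatory and effector T cells, B cells and macrophages and restrains myeloid cells above all. TGF-beta is secreted in a latent form, binds the receptor chain TGFBR2, which recruits and activates TGFBR1, and the complex phosphorylates SMAD2 and SMAD3. SMAD7 blocks the receptor, and SnoN, the product of Skil, represses SMAD target genes; both are known as feedback inhibitors that the pathway itself induces. With other signals TGF-beta drives either regulatory T cells or Th17 cells, the helper cells that make IL-17.

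The libraries held between 31234177 and 41815573 counts, and all 10 genes passed the filter on low counts, their lowest count in a library being 42. Levels are given as TMM-scaled CPM, counts scaled to library size, with the SD over 3 libraries, and changes as log2 fold changes ± SE from edgeR's quasi-likelihood test, with p-values adjusted by Benjamini-Hochberg over the 19348 genes tested and a threshold of 0.05. Coordinates are those of the table, given as build mm39. The labelled cell type was checked against markers: Cd4 averaged 104 ± 4.57 CPM in CIA with luteolin, 128 ± 39.6 CPM in CIA and 2.92 ± 0.639 CPM in control (SD, n = 3 each). S100a9, a neutrophil transcript, averaged 3971 ± 275, 6744 ± 1806 and 1648 ± 242 CPM in the same groups, above the T cell gene Cd3e in every group (25.1 ± 1.71, 38.6 ± 12.1 and 13.5 ± 1.64 CPM). The libraries labelled control therefore carried little Cd4 RNA, and each direction given against control rests on them. In bulk RNA, fewer cells of a type and less RNA per cell cannot be told apart.

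In CIA against control, 4 of the 10 genes rose (Il10, Il10ra, Smad3 and Skil), 3 fell (Il10rb, Tgfb3 and Tgfbr1) and 3 did not pass. Of all genes tested 26.6% rose and 24.5% fell, 51.1% together. The 4 that rose were 2 without control replicate 1 or 2 or CIA replicate 2. In CIA with luteolin against CIA, 1 of the 10 rose (Il10rb), 6 fell (Il10, Il10ra, Tgfbr2, Smad3, Smad7 and Skil) and 3 did not pass, where 23.1% of all genes tested rose and 24.2% fell, 47.3% together; without CIA replicate 3, 2 rose. In CIA with luteolin against control, none rose, 5 fell (Il10ra, Tgfb3, Tgfbr2, Smad3 and Smad7) and 5 did not pass, where 24.2% of all genes rose and 20.8% fell, 45.0% together. For the rise of none, edgeR gave 0 genes at an unadjusted p under 0.05 as well, and DESeq2 gave 0. The median log2 fold change of the 10 genes was -0.15, -0.55 and -0.39 in these comparisons, taken in the same order, beside -0.01, -0.04 and -0.01 over all genes tested. CIA libraries enter both of the first comparisons and control libraries enter CIA against control and luteolin against control, so the values are not independent of each other. The groups did not overlap for 4 genes higher and 4 lower in CIA against control (background 29.7% and 29.1%, 58.7% together), for 1 and 6 in luteolin against CIA (28.0% and 27.7%, 55.7% together) and for 2 and 7 in luteolin against control (32.3% and 30.9%, 63.3% together). The plot of CPM by library shows all 10 genes.

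**Figure D1:**
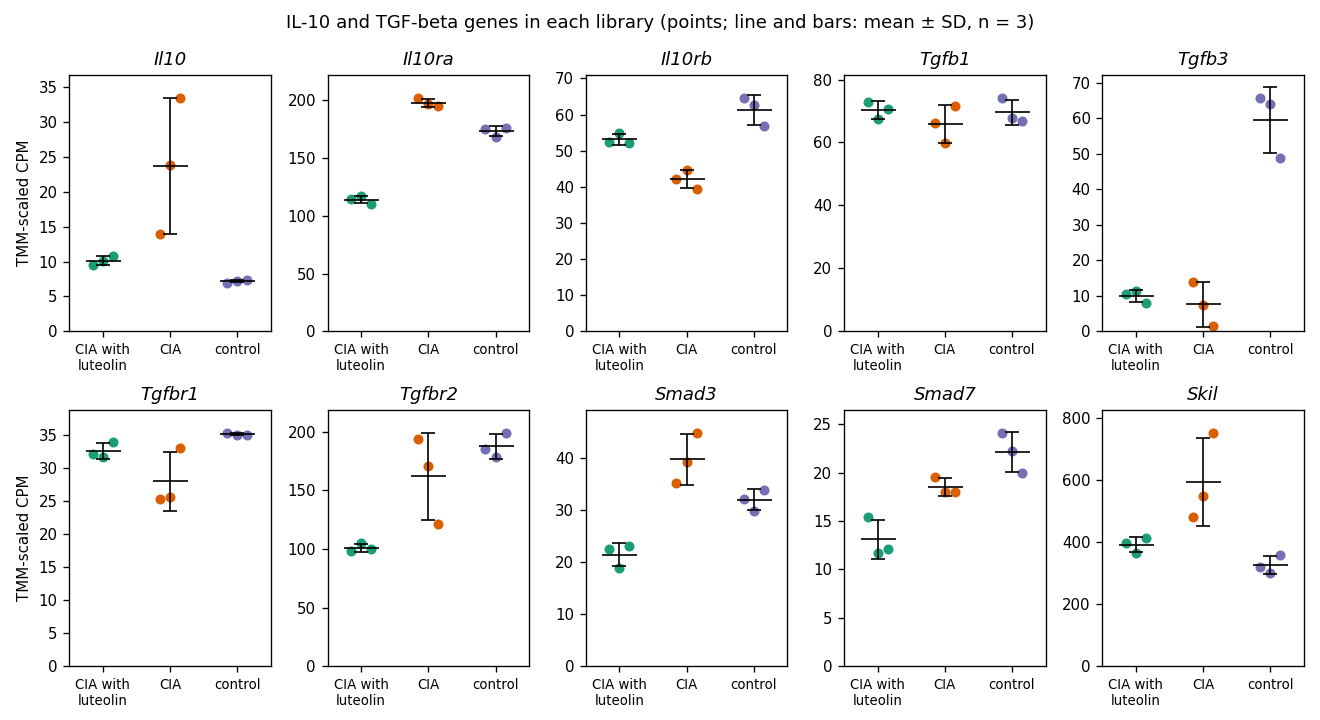
TMM-scaled CPM (y axes, from 0) of the 10 genes in each library of CIA with luteolin, CIA and control (x axes); points are libraries, and the line and bars give the mean ± SD of 3. Il10 and Skil are highest in the CIA libraries, Tgfb3 is highest in control at 49.0 to 65.7 CPM, and the 3 groups overlap for Tgfb1.

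Il10, the cytokine gene itself (chromosome 1, 130947582 to 130952711, plus strand), was at 9.54, 10.1 and 10.8 CPM in CIA with luteolin, at 14.0, 23.8 and 33.4 CPM in CIA and at 6.98, 7.27 and 7.37 CPM in control. Every CIA library lay above every luteolin library, and these lay above every control library. Il10 rose 3.28-fold in CIA above its control level (1.72 ± 0.25 on the log2 scale, adjusted p = 0.000326), and fell in CIA with luteolin against CIA (-1.22 ± 0.24, adjusted p = 0.00212). CIA with luteolin against control gave 0.49 ± 0.25 and did not pass (adjusted p = 0.132), although its groups did not overlap; it passed in a fit of only those 6 libraries and in the fit without a filter. The CIA libraries differed 2.39-fold among themselves, against 1.13-fold in CIA with luteolin and 1.06-fold in control. With CIA replicate 3 left out, the change was 1.39 for CIA against control and -0.90 for luteolin against CIA, both past the threshold.

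Il10ra, the IL-10-binding chain (chromosome 9, 45165135 to 45180447, minus strand), had steady levels within groups, the steadiest of the 10 in CIA by the highest over the lowest library. It was at 114, 117 and 110 CPM in CIA with luteolin, at 201, 196 and 195 CPM in CIA and at 175, 168 and 176 CPM in control. The groups did not overlap, with luteolin lowest and CIA highest. Il10ra fell with luteolin both against CIA (-0.80 ± 0.07, adjusted p = 5.84e-06) and against control (-0.60 ± 0.06, adjusted p = 4.96e-05). Its rise in CIA over control was 1.14-fold (0.19 ± 0.06, adjusted p = 0.0287), and it was lost in 3 of the 6 fits that left out 1 library of that comparison (control replicates 1 and 2, 0.20 and 0.17, and CIA replicate 2, 0.19).

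Il10rb, the shared receptor chain (chromosome 16, 91203052 to 91222722, plus strand), ran the other way. It was at 52.5, 54.8 and 52.1 CPM in CIA with luteolin, at 42.2, 44.6 and 39.5 CPM in CIA and at 64.6, 62.7 and 56.7 CPM in control, again without overlap. It rose with luteolin against CIA (0.34 ± 0.08, adjusted p = 0.00704) and fell in CIA against control (-0.54 ± 0.08, adjusted p = 0.000439). Luteolin against control gave -0.21 ± 0.08 (adjusted p = 0.0627), and was called lower without control replicate 3 (-0.26). The gene model Gm21970 shares 45.0% of the exonic bases of Il10rb on the same strand and held 198% of its counts. How reads in the shared bases were assigned is not known, so the counts of Il10rb are uncertain. Gm21970 averaged 130 ± 3.74 CPM in CIA with luteolin, 78.3 ± 3.38 CPM in CIA and 100 ± 8.10 CPM in control.

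Per kilobase of exon, the ratio of Il10ra to Il10rb was 2.31 to 2.37 in CIA with luteolin, 4.80 to 5.37 in CIA and 2.92 to 3.37 in control. The ratio was thus highest in CIA and lowest with luteolin, with no overlap; 3 libraries against 3 cannot give an exact permutation p under 0.1, and the ratio was not tested. It carries the same uncertainty from Gm21970.

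Tgfb1, the ligand that most leukocytes make (chromosome 7, 25386427 to 25404502, plus strand), did not pass in any comparison. It was at 72.9, 67.4 and 70.7 CPM in CIA with luteolin, at 66.1, 59.8 and 71.7 CPM in CIA and at 74.1, 67.9 and 66.8 CPM in control. All 3 groups overlapped, and the fitted changes were -0.08 ± 0.09 for CIA against control, 0.09 ± 0.09 for luteolin against CIA and 0.01 ± 0.09 for luteolin against control. At an SE of this size, changes well under 1.5-fold could have gone unseen.

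Tgfb3, a ligand known from mouse Th17 cells (chromosome 12, 86103519 to 86125815, minus strand), had the widest range of the 10. It was at 10.5, 11.4 and 7.93 CPM in CIA with luteolin, at 13.9, 7.52 and 1.39 CPM in CIA and at 65.7, 64.2 and 49.0 CPM in control. Every library of both CIA groups lay far below every control library. Tgfb3 fell in CIA against control, where it was 7.78-fold higher in control (-2.96 ± 0.53, adjusted p = 0.00110), and in luteolin against control (-2.58 ± 0.52, adjusted p = 0.00235). Luteolin against CIA overlapped and did not pass (0.38 ± 0.52, adjusted p = 0.575), and the sign of that change turned to -0.11 without CIA replicate 3, which held 42 counts, while it was 1.14 without CIA replicate 1. Other genes on the opposite strand share 12.4% of its exonic bases, among them Gm48008, which held 42.0% of its counts and averaged 4.17 ± 0.976 CPM in CIA with luteolin, 2.94 ± 2.42 CPM in CIA and 25.4 ± 3.34 CPM in control. Per kilobase, Tgfb1 over Tgfb3 was 3.97 to 5.98 in CIA with luteolin, 3.20 to 34.6 in CIA and 0.710 to 0.915 in control, so Tgfb3 was the higher of the pair in each control library and the lower in each of the other 6.

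B cell markers, like Tgfb3, were highest in control and had the same order of levels over the CIA libraries. The cytotoxic T and NK sum was also highest in control, but without that order. Of 7 B cell genes, 5 were lower in CIA than in control and 2 did not pass, where 24.5% of all genes fell. With luteolin against CIA 2 were lower and 5 did not pass, where 24.2% of all genes fell. The summed CPM of 7 B cell genes was 401 to 501 in CIA with luteolin, 272 to 1519.9 in CIA and 1951 to 2013 in control. Within CIA, replicates 1, 2 and 3 held sums of 1519.9, 887 and 272 CPM for these genes beside 13.9, 7.52 and 1.39 CPM of Tgfb3. Every luteolin library held less of both than CIA replicate 1 and more of both than CIA replicate 3. Against CIA replicate 2, each luteolin library held a lower B cell sum and more Tgfb3. Cd79a, a chain of the B cell receptor, averaged 26.2 ± 3.61 CPM in CIA with luteolin, 52.8 ± 28.6 CPM in CIA and 116 ± 6.14 CPM in control. The part of B cells in the difference of Tgfb3 was not tested.

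The promoter windows of Smad3 and Tgfbr2 are shown because these members fell together with luteolin against both other groups, and that of Tgfb1 because it passed in none. RefSeq windows (build GRCm38.p6, not the build of the counts) run from 250 bases before to 50 after the start. Those of 4 of the 10 genes were examined, Tgfbr1 being the other. Il10ra and Smad7 also fell with luteolin against both other groups, but they and the other remaining members were not examined. The matches below do not speak for them. Capitals mark GGGCGG, the GC box letters, and CAGAC, the letters of a SMAD-binding element, on either strand; no match overlaps another.
Smad3, chr9:63757945-63758244, minus strand: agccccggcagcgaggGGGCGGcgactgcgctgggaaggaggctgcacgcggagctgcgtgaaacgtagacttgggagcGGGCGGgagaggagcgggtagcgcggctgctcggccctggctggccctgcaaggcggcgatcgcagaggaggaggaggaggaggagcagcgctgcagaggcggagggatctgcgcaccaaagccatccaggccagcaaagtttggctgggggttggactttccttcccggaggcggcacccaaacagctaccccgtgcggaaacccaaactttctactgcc
Tgfbr2, chr9:116175314-116175613, minus strand: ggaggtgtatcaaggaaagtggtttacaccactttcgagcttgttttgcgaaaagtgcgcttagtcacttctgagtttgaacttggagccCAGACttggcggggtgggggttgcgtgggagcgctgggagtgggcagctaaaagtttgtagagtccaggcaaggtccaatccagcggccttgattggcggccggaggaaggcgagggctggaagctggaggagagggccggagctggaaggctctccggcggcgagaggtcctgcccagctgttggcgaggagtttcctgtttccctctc
Tgfb1, chr7:25686752-25687051, plus strand: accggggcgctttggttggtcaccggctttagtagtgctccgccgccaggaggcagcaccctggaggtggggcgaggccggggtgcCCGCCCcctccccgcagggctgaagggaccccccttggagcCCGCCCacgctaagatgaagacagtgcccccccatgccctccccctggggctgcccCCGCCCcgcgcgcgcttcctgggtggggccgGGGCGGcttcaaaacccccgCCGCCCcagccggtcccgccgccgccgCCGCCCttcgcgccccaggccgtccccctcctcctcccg
The GC box letters occurred 2 times in the Smad3 window, 0 times in that of Tgfbr2 and 6 times in that of Tgfb1, and are in 35.7% of the 32851 promoter windows of the same length. CAGAC occurred 1 time in the Tgfbr2 window and in neither of the others, and is in 49.6% of all windows. The longer palindrome GTCTAGAC, the STAT letters TTCNNNGAA and the TATA letters TATAAA were in none of the 3, against 0.213%, 8.30% and 13.6% of all windows. These are matches of letters, not sites, and the GC content was 67.7% for Smad3, 59.0% for Tgfbr2 and 77.0% for Tgfb1, beside a median of 52.7% over all windows.

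Tgfbr1, the signalling receptor kinase (chromosome 4, 47353222 to 47414931, plus strand), was at 32.2, 31.7 and 33.9 CPM in CIA with luteolin, at 25.3, 25.6 and 33.1 CPM in CIA and at 35.3, 35.1 and 35.0 CPM in control. CIA replicate 3 lay among the luteolin libraries, and the other CIA libraries lay below all of them. Tgfbr1 fell in CIA against control (-0.33 ± 0.11, adjusted p = 0.0259), but 5 of the 6 fits without 1 library lost that call, at -0.34 to -0.27. The fit without CIA replicate 3, gave -0.46 and kept it. Luteolin against CIA gave 0.22 ± 0.11 and did not pass (adjusted p = 0.118), and was called higher without CIA replicate 3 (0.35). Luteolin against control gave -0.11 ± 0.11 (adjusted p = 0.436).

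Tgfbr2, the ligand-binding receptor chain (chromosome 9, 115913361 to 116004428, minus strand), was at 98.0, 105 and 100 CPM in CIA with luteolin, at 194, 171 and 121 CPM in CIA and at 185, 178 and 199 CPM in control. The luteolin libraries lay below every other library. Tgfbr2 fell with luteolin against CIA (-0.68 ± 0.14, adjusted p = 0.00273) and against control (-0.89 ± 0.14, adjusted p = 0.000603). CIA against control overlapped and did not pass (-0.21 ± 0.14, adjusted p = 0.234), and it was called lower without CIA replicate 1 (-0.37), while it was -0.04 without CIA replicate 3. Per kilobase, Tgfbr2 over Tgfbr1 was 2.36 to 2.65 in CIA with luteolin, 2.93 to 6.14 in CIA and 4.05 to 4.54 in control. The ratio was lowest in the luteolin libraries, and CIA overlapped control.

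Smad3, the receptor-activated transcription factor (chromosome 9, 63554049 to 63665276, minus strand), was at 22.4, 18.9 and 23.0 CPM in CIA with luteolin, at 35.1, 39.2 and 44.8 CPM in CIA and at 32.1, 29.9 and 33.9 CPM in control. The groups did not overlap, with luteolin lowest and CIA highest. Smad3 was 1.85-fold higher in CIA than in CIA with luteolin, a fall of -0.89 ± 0.12 with luteolin (adjusted p = 0.000143), and it fell against control too (-0.58 ± 0.12, adjusted p = 0.00231). Its rise in CIA over control (0.31 ± 0.11, adjusted p = 0.0406) held only without CIA replicate 1 (0.39) among the 6 fits that left out 1 library, the others giving 0.22 to 0.36.

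Smad7, the inhibitor of the receptor (chromosome 18, 75500600 to 75529006, plus strand), was lowest with luteolin. It was at 15.5, 11.7 and 12.1 CPM in CIA with luteolin, at 19.5, 18.0 and 18.0 CPM in CIA and at 24.1, 22.2 and 20.0 CPM in control, without overlap. Smad7 fell with luteolin against CIA (-0.50 ± 0.13, adjusted p = 0.00786) and against control (-0.75 ± 0.12, adjusted p = 0.000769). The call against CIA was lost without luteolin replicate 2 (-0.37). CIA against control gave -0.26 ± 0.12 and did not pass (adjusted p = 0.105).

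Skil, the gene of the SMAD corepressor SnoN (chromosome 3, 31149207 to 31176726, plus strand), was at 397, 364 and 413 CPM in CIA with luteolin, at 481, 548 and 751 CPM in CIA and at 320, 299 and 357 CPM in control. The groups did not overlap, with CIA highest and control lowest. Skil rose 1.82-fold in CIA over control (0.87 ± 0.14, adjusted p = 0.000728) and fell with luteolin against CIA (-0.60 ± 0.14, adjusted p = 0.00604). The fall was -0.40 without CIA replicate 3, still past the threshold. Luteolin against control gave 0.27 ± 0.14 and did not pass (adjusted p = 0.157). Per kilobase, Skil over Smad7 was 12.0 to 15.9 in CIA with luteolin, 11.5 to 19.5 in CIA and 6.19 to 8.33 in control, and every library of both CIA groups lay above every control library. The ratio was not tested.

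**Figure D2:**
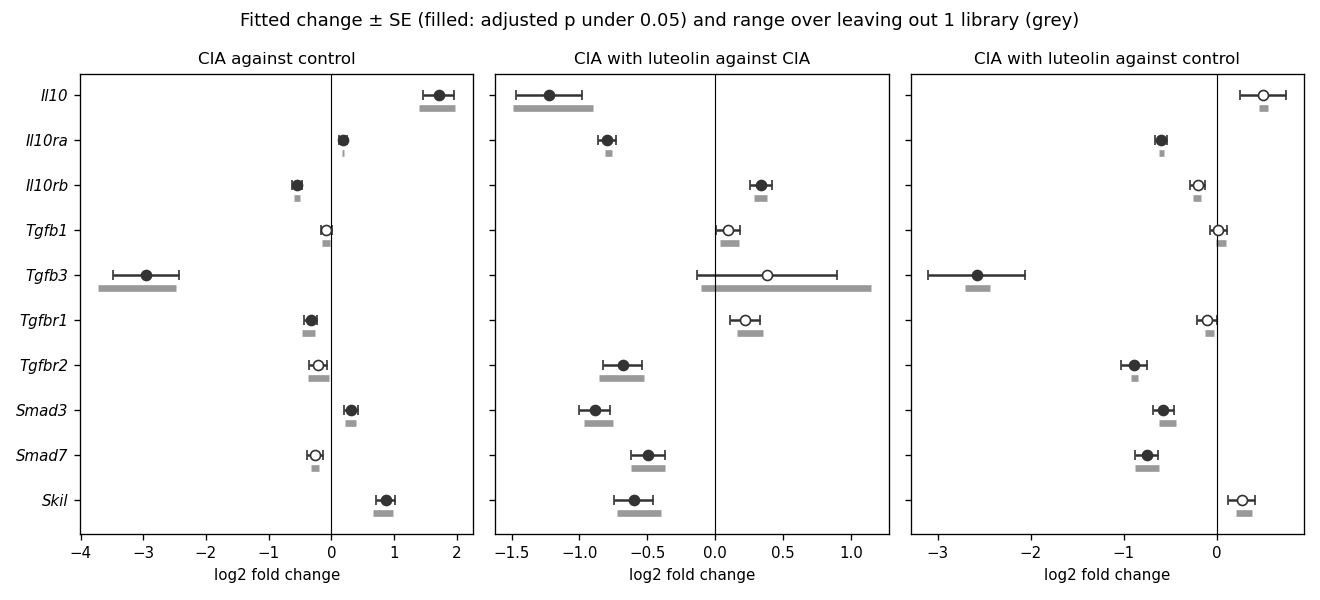
Log2 fold change (x axes, scaled separately) of the 10 genes in the 3 comparisons; points with bars are fitted changes ± SE, filled where the adjusted p is under 0.05, and grey bars span the values obtained on leaving out 1 library. Tgfb3 spans -0.11 to 1.14 in luteolin against CIA, while Il10, Il10ra, Tgfbr2, Smad3, Smad7 and Skil stay below 0 there in each fit.

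Per kilobase of exon, as RPKM (the TMM-scaled CPM divided by exon length), the order of the genes differed between groups. Skil led in CIA with luteolin (40.4 ± 2.60 RPKM) and in CIA (61.2 ± 14.5), and Il10ra led in control (49.4 ± 1.20). In CIA, Skil and Il10ra (56.5 ± 0.995) did not differ beyond their spread. Il10 reached 7.74 ± 0.473 RPKM in CIA with luteolin, 18.1 ± 7.41 in CIA and 5.50 ± 0.157 in control. In CIA the SD of Il10 took in the means of Tgfbr2 (19.8 ± 4.55) and Tgfb1 (13.1 ± 1.19), though the Il10 mean lay above the range of Tgfb1. Smad7 was lowest in luteolin (2.90 ± 0.451), beside Tgfb3 (2.94 ± 0.533), and in control (4.89 ± 0.455), where Tgfbr1 (5.38 ± 0.0251) was close. Tgfb3 was lowest in CIA at 2.24 ± 1.84 RPKM.

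Spread within CIA was uneven over the genes. The highest CIA library stood 9.98-fold above the lowest for Tgfb3, 2.39-fold for Il10, 1.60-fold for Tgfbr2 and 1.56-fold for Skil, and 1.03-fold for Il10ra. Replicate 3 had the most Il10, Smad3 and Skil and the least Tgfb3 and Tgfbr2 of the CIA libraries. It also had the highest sum of the CIA libraries in 10 of the 12 marker lists, among them T cells at 650 CPM beside 413 and 621 in CIA replicates 1 and 2, neutrophils at 10835 beside 6389 and 9595, and monocytes and macrophages at 3079.7 beside 1321 and 2086. It was lowest for B cells, and CIA replicate 2 was highest for cytotoxic T and NK cells. The part of these cells in the spread was not tested.

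The marker lists also moved between the groups. The 10 T cell genes summed to 417 to 446 CPM in CIA with luteolin, 413 to 650 in CIA and 220 to 241 in control, with 9 of 10 higher in CIA than in control and 3 of 10 lower with luteolin than in CIA. The 6 regulatory T cell genes, cells known to make both cytokines, summed to 322 to 338, 201 to 307 and 76.8 to 80.0 CPM in the same order of groups. Foxp3 averaged 71.9 ± 3.30 CPM in CIA with luteolin, 31.4 ± 5.39 CPM in CIA and 17.4 ± 1.35 CPM in control, without overlap. Of these 6 genes 4 were higher and 1 lower with luteolin than in CIA. The 10 neutrophil genes summed to 6216 to 6673, 6389 to 10835 and 1911 to 2272 CPM. They were mixed, with 4 of 10 higher and 6 lower with luteolin than in CIA. The 13 monocyte and macrophage genes summed to 2689.7 to 3099, 1321 to 3079.7 and 614 to 791 CPM. With luteolin 11 of those 13 were higher than in CIA, but in CIA 8 of the 13 were lower and 2 higher than in control, against the direction of the sum. Csf1r, the receptor of macrophage growth factor, averaged 284 ± 32.4 CPM in CIA with luteolin, 75.2 ± 15.3 in CIA and 65.2 ± 1.78 in control. C1qa, a complement gene of macrophages, averaged 3.15 ± 0.775, 0.0556 ± 0.0963 and 1.17 ± 0.280 CPM in that order. The 7 megakaryocyte and platelet genes, from cells rich in TGF-beta protein, summed to 163 to 171, 102 to 154 and 32.7 to 33.9 CPM, with Pf4 at 24.6 ± 0.929, 4.06 ± 2.00 and 1.35 ± 0.417 CPM. That list was mixed with luteolin against CIA, with 2 of 7 higher, 2 lower and 3 not past. Mast cell and basophil genes (9) summed to 271 to 295, 84.0 to 157 and 22.0 to 25.5 CPM, with Mcpt8 at 15.9 ± 3.14, 1.38 ± 0.286 and 0.215 ± 0.0314 CPM. Cytotoxic T and NK genes (8) summed to 31.2 to 33.8, 22.7 to 30.9 and 43.1 to 61.4 CPM, with Cd8a at 4.15 ± 0.827, 4.77 ± 0.678 and 17.6 ± 2.83 CPM. The list was mixed, with 3 of 8 higher and 3 lower in CIA than in control, and 4 higher and 2 lower in luteolin than in control. Plasma cell genes (6) summed to 500.0 to 553, 418 to 483 and 270.5 to 283 CPM, with Jchain at 125 ± 9.93, 50.0 ± 11.7 and 24.3 ± 1.63 CPM. Of the 5 plasma cell genes tested, 2 were higher and 1 lower with luteolin than in CIA. Dendritic cell genes (7) summed to 44.5 to 50.1, 19.5 to 28.8 and 35.9 to 38.5 CPM, erythroid genes (8) to 1.54 to 2.24, 5.53 to 6.25 and 4.23 to 5.97 CPM, and stromal and endothelial genes (8) to 93.6 to 95.4, 105 to 136 and 102 CPM, the last in each control library. Of all these markers, Cd209a was at 0 in each library of CIA with luteolin and of CIA, and Tnfrsf17 in each control library. The part of any of these cells in the changes of the 10 genes was not tested.

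**Figure D3:**
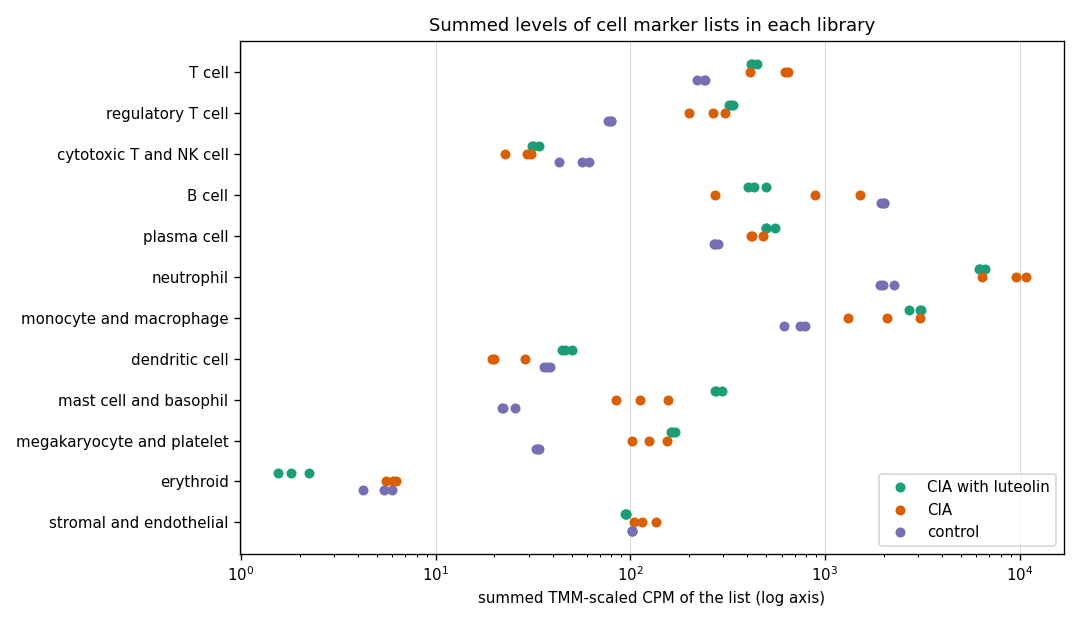
Summed TMM-scaled CPM (x axis, log scale) of 12 lists of cell markers (rows) in each library, with colours for CIA with luteolin, CIA and control. B cell sums span 272 to 1519.9 CPM among the CIA libraries and 1951 to 2013 CPM in control, and neutrophil sums are above T cell sums in all groups.

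Other genes of both pathways were counted in 8 lists. In CIA against control, 26.6% of all genes tested rose, 24.5% fell and the median was -0.01. TGF-beta ligand and activation genes had 7 of 13 tested higher and 1 lower (median 0.69), and 2 lower without CIA replicate 1. Thbs1, thrombospondin 1, an activator of latent TGF-beta, averaged 1824 ± 856 CPM in CIA and 216 ± 19.5 CPM in control (3.08 ± 0.27). Lrrc32, the gene of GARP, which anchors latent TGF-beta on regulatory T cells and platelets, averaged 8.65 ± 2.88 and 1.74 ± 0.284 CPM (2.31 ± 0.25). Furin, the protease that cleaves the TGF-beta precursor, rose by 1.06 ± 0.14, and Nrros, the anchor of latent TGF-beta on myeloid cells, fell (-0.58 ± 0.11). Among receptors and coreceptors 11 of 13 rose and 1 fell (median 0.93), while 7 rose without control replicate 1 and 0 fell without control replicate 1 or 2 or CIA replicate 2. Acvrl1, a receptor of BMP9 and of TGF-beta in endothelium, averaged 32.0 ± 11.3 CPM in CIA and 3.43 ± 0.876 CPM in control (3.22 ± 0.28), and the activin receptor Acvr2a rose by 1.12 ± 0.14.

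SMAD genes and partners split in CIA against control, with 3 of 8 higher and 2 lower (median 0.23). Of all genes tested 26.6% rose and 24.5% fell there. Trim33, a SMAD4 regulator, rose by 0.33 ± 0.07, while Smad1, a SMAD of the BMP branch, averaged 1.79 ± 0.690 CPM in CIA and 4.21 ± 0.963 CPM in control (-1.22 ± 0.30). Of 14 inhibitors and ubiquitin genes 4 rose and 2 fell (median 0.11), while 2 rose without control replicate 3 and 1 fell without control replicate 1. The ubiquitin ligase gene Wwp2 rose by 1.01 ± 0.18, and the deubiquitinase gene Usp11 fell, at 23.1 ± 3.61 CPM in CIA against 46.2 ± 5.29 CPM in control. Of 15 TGF-beta response genes 8 rose and 3 fell (median 0.89), and 5 fell without CIA replicate 3. Nt5e, the gene of CD73, rose by 1.39 ± 0.16, and Itga1, an integrin chain of tissue-resident T cells, by 1.34 ± 0.17, but Tgfbi, named for its induction by TGF-beta, averaged 7.38 ± 4.20 CPM in CIA and 58.8 ± 9.55 CPM in control (-2.98 ± 0.37).

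On the IL-10 side of CIA against control, 4 of 5 tested family ligands and receptors rose and 1 did not pass (median 2.44). Ifnlr1, the interferon lambda receptor chain that pairs with IL-10RB, averaged 33.7 ± 9.34 CPM in CIA and 6.21 ± 0.406 CPM in control (2.44 ± 0.20). Of 15 receptor signalling genes 9 rose and 2 fell (median 0.36), where 26.6% of all genes tested rose and 24.5% fell. Socs3, a STAT3 target, rose by 0.72 ± 0.10 and Nfil3, an IL-10-induced repressor, by 2.02 ± 0.25. Of 17 regulators of Il10 transcription 10 rose and 1 fell (median 0.50), while 2 fell without CIA replicate 1 and 3 without CIA replicate 3. Maf, a factor that drives Il10 in T cells, averaged 60.8 ± 15.9 CPM in CIA and 20.2 ± 3.95 CPM in control (1.58 ± 0.21), and Icos, a costimulatory receptor of IL-10-making helper cells, rose by 4.96 ± 0.43.

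In CIA with luteolin against CIA, 23.1% of all genes tested rose, 24.2% fell and the median was -0.04. Of 13 ligand and activation genes 6 rose and 1 fell (median 0.19). The rises numbered 3 without CIA replicate 2 or luteolin replicate 1 and 2 without luteolin replicate 3, and the falls numbered 4 without CIA replicate 1. Nrros rose by 0.48 ± 0.11. Inhba, an activin chain, averaged 346 ± 67.8 CPM with luteolin and 180.2 ± 108 CPM in CIA (0.94 ± 0.32), a call lost in 4 of the 6 fits that left out 1 library, in the fit of 6 libraries and with DESeq2. On leaving out 1 library the change was 0.69 without CIA replicate 1 to 1.55 without CIA replicate 3. Of 13 receptors and coreceptors 3 rose and 5 fell (median 0.19), and 3 fell without luteolin replicate 1 or 2. Eng, endoglin, a TGF-beta coreceptor of endothelium and macrophages, averaged 5.72 ± 0.102 CPM with luteolin and 1.77 ± 0.418 CPM in CIA (1.69 ± 0.21), while Acvrl1 fell (-1.36 ± 0.25).

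SMAD genes and partners again split, with 3 of 8 higher and 3 lower with luteolin (median -0.09). Of all genes tested 23.1% rose and 24.2% fell there. Smad4, the common partner of SMAD3, averaged 22.1 ± 1.13 CPM with luteolin and 29.3 ± 1.92 CPM in CIA (-0.40 ± 0.09), Trim33 fell (-0.53 ± 0.07) and Smad1 rose by 1.28 ± 0.30. Of 14 inhibitors and ubiquitin genes 3 rose and 6 fell (median -0.08), among them the ubiquitin ligase genes Smurf1, which rose by 0.71 ± 0.09, and Rnf111, which fell (-0.37 ± 0.07). Of 15 TGF-beta response genes 4 rose and 6 fell (median -0.38), and 3 fell without luteolin replicate 2 or 3. Tgfbi averaged 322 ± 25.0 CPM with luteolin and 7.38 ± 4.20 CPM in CIA (5.44 ± 0.40, adjusted p = 2.80e-06). Itgae, the CD103 integrin chain that TGF-beta induces in T cells, averaged 14.8 ± 1.41 and 2.91 ± 0.510 CPM (2.35 ± 0.16), and Itga1 rose by 2.07 ± 0.15, while Id3, an inhibitor of E proteins, fell (-2.02 ± 0.29). Of the 13 monocyte and macrophage markers 11 were higher with luteolin, and their part in these rises was not tested.

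On the IL-10 side, 1 of 5 family genes rose and 2 fell with luteolin (median -0.84), while 2 rose without CIA replicate 3 and 1 fell without luteolin replicate 2. Ifnlr1 was lower at 10.1 ± 1.22 CPM with luteolin against 33.7 ± 9.34 CPM in CIA (-1.74 ± 0.19). Of 15 receptor signalling genes 4 rose and 3 fell (median -0.08), near the 23.1% and 24.2% of all genes tested that rose and fell. Jak1, the kinase bound to IL-10RA, averaged 418 ± 2.94 CPM with luteolin and 634 ± 32.7 CPM in CIA (-0.60 ± 0.06), and Socs1, a JAK inhibitor, rose by 1.06 ± 0.23. Of 17 regulators of Il10 transcription 4 rose and 10 fell (median -0.46), while 6 fell without luteolin replicate 2 and 2 rose without CIA replicate 1 or 2 or luteolin replicate 1. Maf lay further above control with luteolin (2.21 on the log2 scale) than in CIA (1.58). Il10 went the other way, at 0.49 with luteolin and 1.72 in CIA. Ets1, a repressor of Il10 in T helper cells, fell (-0.71 ± 0.10), as did Tbx21, the Th1 factor (-1.21 ± 0.19), and Il27ra, the receptor for IL-27, rose by 0.68 ± 0.15. Il27 itself was called higher (1.76 ± 0.25), but 10.1% of its exonic bases lie in Apobr, which held many more counts.

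**Figure D4:**
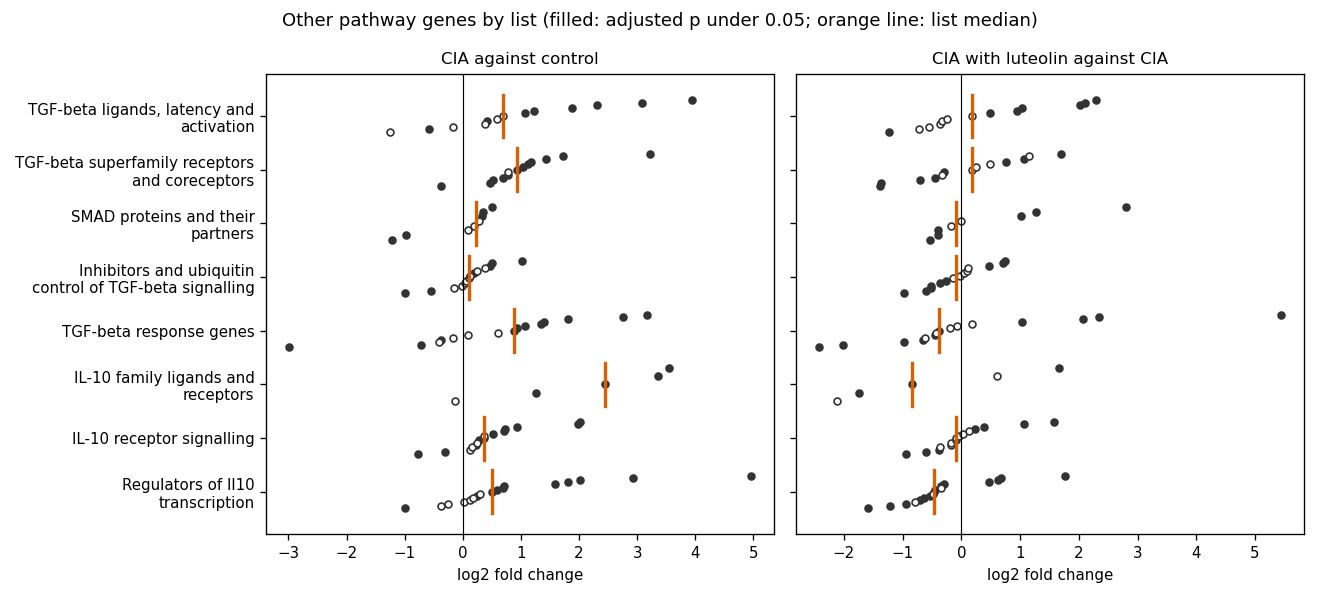
Log2 fold change (x axes) of the other pathway genes, 1 point a gene, in 8 lists (rows), for CIA against control and for CIA with luteolin against CIA; filled points have an adjusted p under 0.05 and the orange line is the list median. Receptors and coreceptors lie mostly right of 0 in CIA against control (median 0.93), and Tgfbi is the farthest point to the right with luteolin (5.44).

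In CIA with luteolin against control, where 24.2% of all genes rose, 20.8% fell and the median was -0.01, 8 of 13 ligand and activation genes rose and 1 fell (median 1.53), 10 of 13 receptors and coreceptors rose and 3 did not pass (median 1.24; 7 to 10 rose on leaving out 1 library), and 10 of 15 TGF-beta response genes rose and 2 fell (median 0.73). SMAD genes had 2 higher and 2 lower of 8 (median 0.03), and inhibitors 3 higher and 3 lower of 14 (median 0.03). On leaving out each library in turn 0 to 1 SMAD genes and 1 to 2 inhibitors were lower. The SMAD genes called lower were Smad2 (-0.32 ± 0.09), whose call was lost in 3 of the 6 fits that left out 1 library, and Trim33 (-0.20 ± 0.07), whose call was lost in all 6. The IL-10 family list had 3 of 5 higher and 2 not past, receptor signalling 7 of 15 higher and 2 lower (1 lower in each fit that left out 1 library but that without control replicate 1), and regulators of Il10 6 of 17 higher and 4 lower, with Maf up by 2.21 ± 0.22.

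Over the 9 libraries, the genes whose log2 CPM ran closest to Il10 by Pearson's correlation were Rab6a (r = 0.998), Fam162a (0.996) and Ero1a (0.996). Rab6a averaged 134 CPM in CIA with luteolin, 225 CPM in CIA and 107 CPM in control. Those closest to Tgfb3 were Bin1 (r = 0.997), Dpp4 (0.997) and Dcaf17 (0.996), and Dpp4, the gene of CD26, averaged 28.5 CPM in CIA with luteolin, 24.5 CPM in CIA and 74.6 CPM in control. Those closest to Smad7 were Irf2bp1 (r = 0.989), Fdxr (0.980) and Ccm2 (0.978). These correlations follow the 3 groups, whose libraries share their source, and are given as a description.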

How the data were processed

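RNA was measured in 9 libraries of 3 groups, labelled as spleen CD4+ T cells, and read from 1 table of raw counts of reads per gene, deposited by the authors. Per the submitters' processing notes reads were trimmed with Trimmomatic 0.36, counted with featureCounts (Subread 1.5.1) and tested with edgeR 3.12.1, and the build is mm39. Per the labels' protocols the aligner is written STRA, version 2.5.3a, and the reference is named as CHOK1GS, a hamster genome, although the table holds mouse genes. The strand setting is not given in the sources used here, so overlapping genes were looked up in the table's exons. The kit is stated to be stranded. Of counts from 1 to 10, 73.4% were even, beside 52.8% of counts over 200 to 1000. The cause was not tested, so whether each count is 1 independent fragment is not known.

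From these deposited counts edgeR 4.0.16 (R 4.3.3) was run with filterByExpr with the groups, TMM scaling, a term per group over all 9 libraries, glmQLFTest, 2-sided, adjusted over 19348 genes. Each SE was taken from the change and its F statistic (absolute change over root F). RPKM is CPM per kilobase of the table's exon length. On simulated data the fit recovered 20% to 28% of 1.5-fold changes, 64% to 70% of 2-fold changes and 88% to 90% of 4-fold changes. Changes of the smaller sizes can thus go uncalled. No 2 libraries of a group were duplicates (chi-square per degree of freedom of at least 5.51).

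The members and lists were chosen with earlier results of these data known. All 10 members are named; of each pathway list up to 4 genes per comparison were eligible, namely the ones with the smallest p that passed and averaged 2 CPM or more; for likeness 3 genes each for Il10, Tgfb3 and Smad7, by log2(CPM + 0.5), among genes with a mean of at least 2 CPM, leaving out gene models and genes that share exonic bases. Alternatives were DESeq2 1.42.0, other scaling factors, no or a stricter filter, fits of 6 libraries, a replicate block and leaving out each library. Precision is limited by 3 libraries a group.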

Additional observations from a re-analysis of the deposited data

How the results depend on the processing

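Of 420 alternative values of the members' log2 fold changes, 384 kept their direction and their side of the threshold, 20 lost the call, 11 gained one and 5 changed sign. Of 1218 values of the named pathway genes, 1190 kept both and 28 lost the call. Members higher in CIA against control numbered 4, and 2 without a filter and in the fit of only the 6 libraries compared, and 2 to 4 on leaving out 1 library. Members higher in luteolin against CIA numbered 1, and 2 with library totals and without a filter, and 1 to 2 on leaving out 1 library. Members higher in luteolin against control numbered 0, and 2 without a filter and in the fit of 6 libraries. The changes of sign were for values that did not pass: Tgfb1 in luteolin against control (0.01) was -0.037 with upper-quartile factors and -0.014 to 0.10 on leaving out 1 library, and Tgfb3 in luteolin against CIA (0.38) was -0.11 to 1.14. The cause was not tested. Counts of all genes called stayed within 1.5 times under each alternative, and DESeq2 called the same numbers of members in each direction.

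The labels share replicate numbers over the groups. Correlations of deviations of same-numbered libraries were 0.0317 to 0.0627 in CIA against control, 0.00654 to 0.143 in luteolin against CIA and 0.0402 to 0.0790 in luteolin against control. Those of different-numbered libraries were -0.0571 to 0.00177, -0.177 to 0.0919 and -0.0744 to 0.0267 in the same order. Same-numbered libraries were thus weakly alike, above all others in the comparisons with control. The main fit did not take the numbers as pairs. With the replicate block, 9794, 9148 and 8764 genes passed in CIA against control, luteolin against CIA and luteolin against control, where 9886, 9148 and 8708 passed without it, and the counts of members were 4 and 3, 1 and 6, and 0 and 5 higher and lower, as without it.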
